A study of Mus musculus with 20 samples.

Results

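A promoter was taken as dense in strain variants when its probe carried at least 20 variants between C57BL/6J and FVB/N. It also had to hold 11 to 100 CG sites, to lie on chromosomes 1 to 19, and to belong to a gene whose symbol does not start with Vmn, Olfr, Mir, H2-, Klr, Zfp, Krt or Def. Of the 22480 promoter probes in the deposited table, 16358 met every condition but the number of variants, and 987 met all of them (4.391% of all probes). Each probe covers 2200 bases, from 2000 bases before to 200 bases after the start of a gene. The variant numbers are annotation and were not chosen on the methylation values.

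Sperm DNA of male mice aged 8 weeks was profiled by methyl binding domain sequencing (MBD-seq). Both inbred strains, C57BL/6J and FVB/N, were studied in control and DEHP groups with 5 libraries in each of the 4 groups, and all mice were wild type. The mothers had received by mouth either corn oil alone or 300 mg/kg/day of DEHP (bis(2-ethylhexyl)phthalate, a plasticizer with endocrine-disrupting properties) in corn oil, on gestation days 9 to 19. Sperm was let out of the vas deferens and epididymis, and the study's methods state that preparations with somatic cells under the microscope were not used. No expression was measured in these libraries, so cell type markers were not examined here. Controls and DEHP libraries were submitted apart and differed in read length and in average number of read-pairs. The effects of treatment and of submission therefore cannot be told apart. Both strains stand in each submission, so each comparison of the strains lies within 1 submission.

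DNA methylation in mammals is found mostly at cytosines followed by guanine, and methylated DNA can be pulled out of fragmented DNA with a protein domain that binds it. The number of read-pairs over a region therefore depends on how many of its CG sites are methylated, and also on how many sites it has and how well its reads are placed on the genome. A variant between strains can remove or create a CG site, or can put mismatches into reads of the strain that differs from the reference. The reference used by the authors, mm10, is the C57BL/6J genome. Inbred strains share long tracts of common ancestry, so variants are spread unevenly along the chromosomes.

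The variant number of the 987 promoters ran from 20 to 106 with a median of 27. The median number of CG sites was 42, against 49 in the 8742 promoters of the same class without a variant. A functional variant in the gene was annotated for 67.4% of the 987 promoters and for 7.53% of the promoters without a variant. In RefSeq, 849 of the 987 genes (86.0%) were protein coding and 112 (11.3%) were long non-coding RNA genes. The share of variant-dense promoters within the class ran from 2.96% on chromosome 10 to 10.9% on chromosome 12, and chromosome 4 had the most, with 113. The 987 probes formed 934 sets that do not overlap, and some are 1 region listed under several symbols, such as Serpina1a, Serpina1c and Serpina1d. Positions of single variants are not in the table, and its header gives the span of the variant count with the upstream and downstream ends exchanged, so where the variants lie inside a probe is not given here.

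The following sequences are from the 6 promoters on which the strain comparison turns most directly, 5 with more reads in C57BL/6J in both treatments and Clec2f with more reads in FVB/N. Each is the stretch of 200 bases upstream of the start site, free of annotated exons, that holds the most CG sites of its probe. They were read from GRCm38.p6, whose coordinates are those of mm10, so they show the C57BL/6J reference and not the FVB/N allele. They are written 5′ to 3′ on the strand of the gene, with CG sites in capitals.
Actr2 chr11:20112994-20113193 (minus strand): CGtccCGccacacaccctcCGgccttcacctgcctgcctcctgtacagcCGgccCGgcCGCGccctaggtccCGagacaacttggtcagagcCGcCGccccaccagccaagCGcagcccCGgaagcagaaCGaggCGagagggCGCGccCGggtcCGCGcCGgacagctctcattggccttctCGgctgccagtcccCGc
Cd200r2 chr16:44866211-44866410 (plus strand): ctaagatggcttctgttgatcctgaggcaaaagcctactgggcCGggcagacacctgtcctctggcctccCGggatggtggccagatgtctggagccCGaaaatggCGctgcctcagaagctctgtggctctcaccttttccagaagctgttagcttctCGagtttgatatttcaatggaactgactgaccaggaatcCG
C330011F03Rik chr17:51448270-51448469 (minus strand): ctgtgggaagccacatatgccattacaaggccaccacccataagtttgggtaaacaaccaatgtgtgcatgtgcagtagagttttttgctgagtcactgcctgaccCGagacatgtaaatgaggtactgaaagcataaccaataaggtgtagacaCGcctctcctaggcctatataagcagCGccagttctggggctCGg
AA388235 chr17:33981205-33981404 (plus strand): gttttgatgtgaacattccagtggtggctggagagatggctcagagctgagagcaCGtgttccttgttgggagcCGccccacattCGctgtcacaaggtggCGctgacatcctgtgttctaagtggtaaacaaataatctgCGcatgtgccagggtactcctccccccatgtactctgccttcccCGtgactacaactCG
Klf12 chr14:100149797-100149996 (minus strand): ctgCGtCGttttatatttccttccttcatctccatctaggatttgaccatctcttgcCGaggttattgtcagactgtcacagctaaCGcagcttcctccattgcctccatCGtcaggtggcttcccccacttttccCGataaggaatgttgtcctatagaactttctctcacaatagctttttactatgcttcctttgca
Clec2f chr6:129012144-129012343 (plus strand): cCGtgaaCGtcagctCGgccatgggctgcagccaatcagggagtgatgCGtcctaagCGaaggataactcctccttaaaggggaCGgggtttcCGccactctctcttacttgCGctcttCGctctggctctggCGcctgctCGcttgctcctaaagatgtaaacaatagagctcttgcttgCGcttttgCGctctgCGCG
The Actr2 stretch held 22 CG sites, starts 43 bases upstream of the gene and lies in a probe with 85 CG sites and 32 variants. The Clec2f stretch held 15 CG sites and lies 1769 bases upstream, in a probe with 31 CG sites and 20 variants. The other 4 stretches held 4 to 7 CG sites, and their probes carried 38 to 51 variants. The Klf12 probe stands at an inner start of the gene, 136096 bases from the outermost RefSeq start, and the Clec2f probe lies 5309 bases from it. The AA388235 probe also overlaps exons of CR974462.6 and Gm4152.

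The values compared are the mean and the SD of normalised reads per group, as computed by the authors over 5 libraries. No value of a single library entered, and no test between groups was run, so every difference below is a description. Groups were counted as separated when the ranges that the mean and SD allow for 5 values (1.79 SD on each side, widened for rounding) did not overlap, which means that every library of one group lay above every library of the other. As a looser criterion, differences of means over 3 times their standard error were counted. Before comparison the 4 groups were scaled to equal medians over all probes, since the deposited medians of C57BL/6J and FVB/N were 5.0 and 3.0 for controls, and 5.3 and 4.9 for DEHP libraries. Log2 ratios are of scaled means with a pseudocount of 1, which understates the ratio of low promoters. FVB/N controls were the most variable group among the 719 of the 987 promoters with a mean level of at least 3 normalised reads. The median SD there was 0.716 of the mean in FVB/N controls and 0.367 in C57BL/6J controls. In DEHP libraries of C57BL/6J and FVB/N it was 0.375 and 0.364.

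The first question was whether promoters with many variants differ more between the strains. In controls, C57BL/6J had more captured reads than FVB/N at 76.0% of the 987 promoters. This compares with 46.5% of all probes and 43.9% of promoters of the same class without a variant. The median log2 ratio of the 987 was 0.46, with quartiles of 0.02 and 0.86. Over all probes the median was -0.04. In DEHP libraries, which are other animals, 79.0% of the 987 promoters were higher in C57BL/6J, against 44.1% of all probes. The median there was 0.39, with quartiles of 0.07 and 0.78, against -0.05 over all probes. Promoters of the same class without a variant had medians of -0.07 in controls and -0.11 in DEHP libraries.

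The median ratio was higher in each class of more variants. The medians in controls were -0.07 without a variant, -0.06 with 1 to 4, 0.03 with 5 to 9, 0.17 with 10 to 19, 0.38 with 20 to 29 and 0.57 with 30 and over. In DEHP libraries the same classes had medians of -0.11, -0.08, -0.01, 0.11, 0.30 and 0.52. Among the most variable promoters, 96 with 40 to 59 variants had medians of 0.72 in controls and 0.78 in DEHP libraries. The 12 promoters with 60 variants or more had medians of 1.18 and 1.40, and 100% of them were higher in C57BL/6J in both treatments. No step was seen at the threshold of 20, as the 84 promoters with exactly 19 variants had a median of 0.27 in controls and the 83 with exactly 20 had 0.33. Over the 16358 promoters of the class, Spearman's rho between variant number and log2 ratio was 0.177 in controls and 0.225 in DEHP libraries. These are descriptions across promoters, which share their libraries and in part their neighbourhood.

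**Figure D1:**
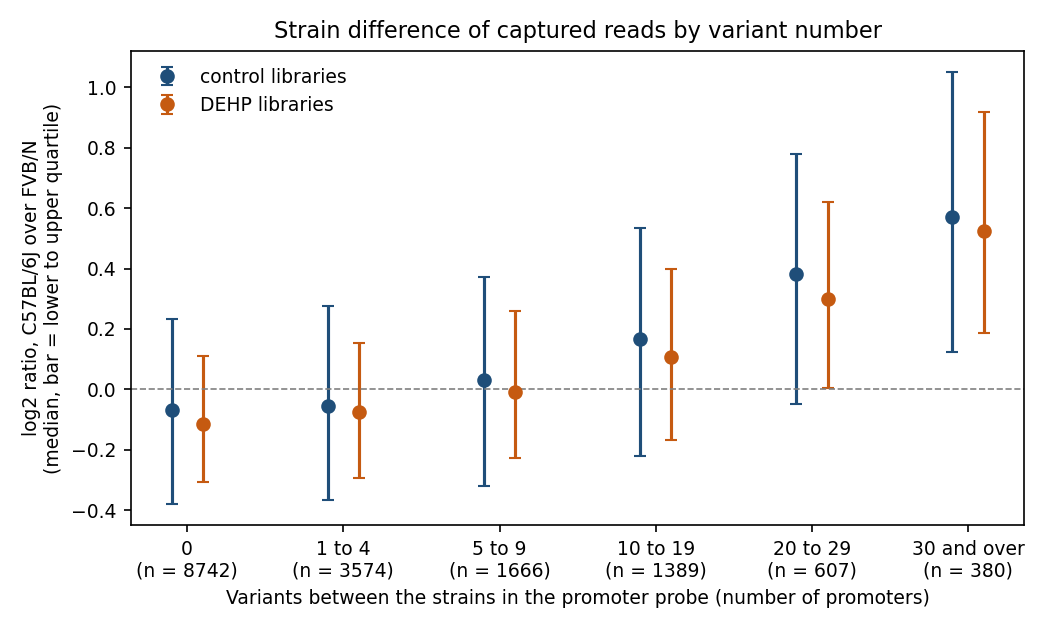
Median log2 ratio of scaled normalised reads, C57BL/6J over FVB/N (y axis), in classes of promoters by their number of variants between the strains (x axis, with the number of promoters), for control and DEHP libraries. Points are medians and bars run from the lower to the upper quartile; the medians go from -0.07 and -0.11 without a variant to 0.57 and 0.52 with 30 variants and over.

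In controls, C57BL/6J libraries were separated above FVB/N libraries at 24 of the 987 promoters (2.43%, against 0.289% of all probes) and FVB/N above C57BL/6J at 2 (0.203%, against 0.129% of all probes). In DEHP libraries the counts were 21 with C57BL/6J higher (2.13%, against 0.258% of all probes) and 1 with FVB/N higher (0.101%, against 0.0445% of all probes), the latter being Gm8994. With means as deposited the count in controls was 72 with C57BL/6J higher (7.29%, against 1.06% of all probes) and 0 with FVB/N higher (0.0267% of all probes), and in that scale the median log2 ratio of all probes was itself 0.54.

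By the looser criterion, 121 promoters (12.3%, against 1.76% of all probes) were higher in C57BL/6J in controls and 10 (1.01%, against 1.65% of all probes) were higher in FVB/N. In DEHP libraries 131 (13.3%, against 2.07% of all probes) were higher in C57BL/6J and 6 (0.608%, against 1.42% of all probes) in FVB/N. The C57BL/6J share in controls went from 0.583% of promoters without a variant to 9.23% with 20 to 29 variants and 17.1% with 30 and over. In DEHP libraries it went from 0.503% to 9.06% and 20%. The FVB/N share was 1.74% without a variant and 0.789% with 30 variants and over in controls, and 1.48% and 0.263% in DEHP libraries.

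**Figure D2:**
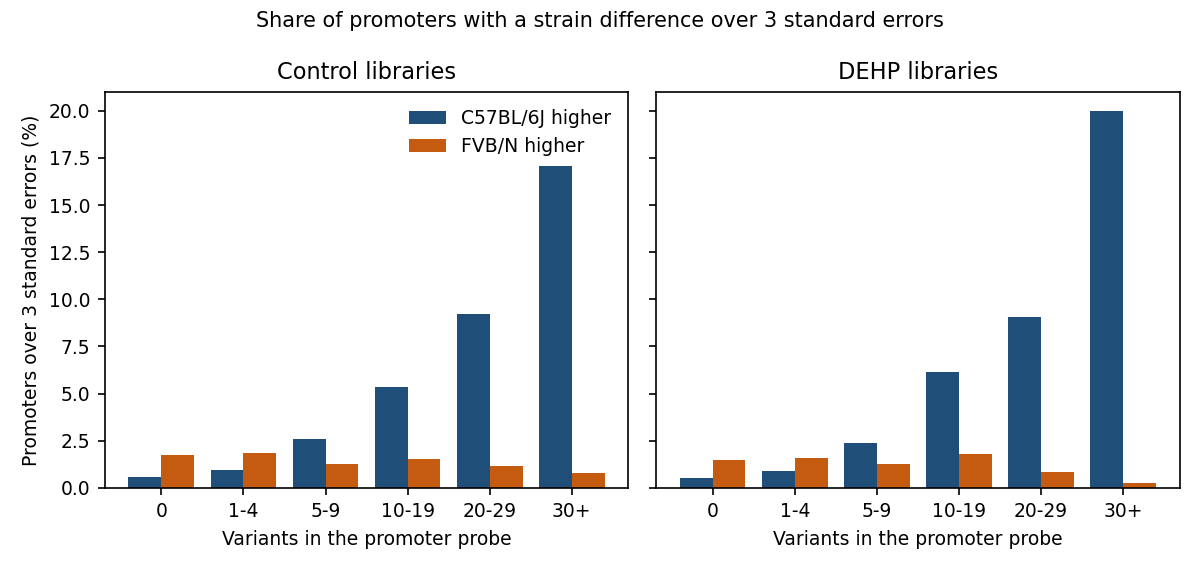
Percent of promoters whose strain means differ by over 3 standard errors (y axis) in classes by variant number (x axis), with C57BL/6J higher and FVB/N higher as separate bars, in control libraries (left) and DEHP libraries (right). The C57BL/6J bars reach 17.1% and 20% with 30 variants and over, while the FVB/N bars stay below 2% in every class.

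The median was above that of promoters without a variant in each class of CG sites, level and repeats examined. Among promoters with 11 to 20 CG sites the median log2 ratio in controls was 0.58 with at least 20 variants and 0.04 without a variant. With 61 to 100 CG sites it was 0.35 and -0.11. At a mean level under 3 normalised reads the medians were 0.31 and -0.20, and at 10 reads and over they were 0.42 and -0.05. Where repeats cover at least 40% of the probe the medians were 0.64 for 113 variant-dense promoters and -0.08 without a variant, and under 20% they were 0.42 and -0.07. Variant-dense promoters of genes with a functional variant had a median of 0.47, and those without one 0.44. On 19 of 19 autosomes the variant-dense promoters had a higher median than the promoters without a variant, in controls and in DEHP libraries. Whether the excess of C57BL/6J reads came from lost or gained CG sites, from reads of FVB/N that were not placed on the C57BL/6J reference or from methylation at shared sites was not tested.

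The second treatment served as a set of libraries that the control comparison had not used. Of the 121 promoters over 3 standard errors with C57BL/6J higher in controls, 117 (96.7%) had the same sign in DEHP libraries and 40 (33.1%) also passed the criterion there. Of the 51 promoters without a variant that were called the same way in controls, 29 (56.9%) had the same sign in DEHP libraries and 4 (7.84%) passed. Of 151 promoters with 1 to 19 variants called this way, 126 (83.4%) had the same sign and 45 (29.8%) passed. Passing again was therefore not particular to variant-dense promoters. Called or not, 79.0% of the 987, 47.0% with 1 to 19 variants and 36.4% without a variant were higher in C57BL/6J under DEHP. The shares with the same sign thus do not start alike. The 40 promoters are 4.05% of the 987, against 0.503% of all probes. Among the 987, 0 were over 3 standard errors with FVB/N higher in both treatments, against 0.0756% of all probes, and 0 were over it in opposite directions, against 0.0267% of all probes. Over the 987 promoters the log2 ratios in controls and in DEHP libraries had a Spearman's rho of 0.431, and over the 8742 without a variant it was 0.001. The ratio was smaller in DEHP libraries, with a median of 0.83 for the 121 promoters against the 1.5 that led to their choice in controls.

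**Figure D3:**
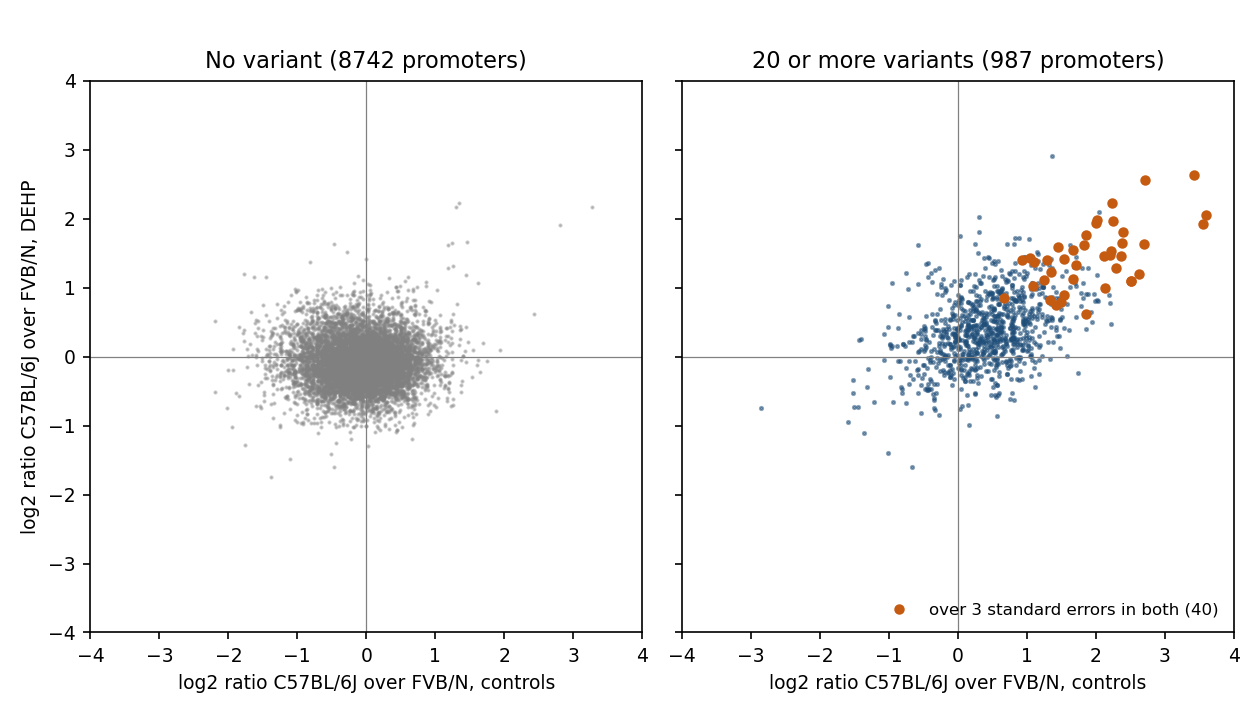
Log2 ratio of C57BL/6J over FVB/N in controls (x axis) and in DEHP libraries (y axis), 1 point a promoter, for 8742 promoters without a variant (left) and 987 promoters with at least 20 variants (right). Orange points are the 40 promoters over 3 standard errors in both treatments, all at the upper right, where C57BL/6J is higher in each.

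Of the 987, 5 promoters had separated libraries with C57BL/6J higher in both treatments (0.507%, against 0.0667% of all probes). The promoter of Actr2, which encodes a subunit of the Arp2/3 complex that branches actin filaments, had 6.1 ± 1.0 normalised reads in C57BL/6J controls and 5.7 ± 1.8 in the DEHP libraries of this strain (the authors' mean and SD, n = 5, as for all values that follow). It was listed at 0 for FVB/N with either treatment, and was the only one of the 987 listed at 0 in both. That is 0.101% of the 987, against 0.103% of promoters without a variant, so this pattern was not more common where variants are dense. The promoter of Cd200r2, of the CD200 receptor family of immune cells, had 16.1 ± 2.6 in C57BL/6J controls and 0.3 ± 0.6 in FVB/N controls, and 8.8 ± 3.2 and 0.4 ± 0.8 under DEHP. Its log2 ratio was 3.43 in controls and 2.64 in DEHP libraries, so the FVB/N libraries were near 0 in both.

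C330011F03Rik, a long non-coding RNA gene, had 11.8 ± 3.7 in C57BL/6J controls and was listed at 0 in FVB/N controls. Under DEHP it had 8.6 ± 2.4 in C57BL/6J and 1.3 ± 0.9 in FVB/N. AA388235, also a long non-coding RNA gene, had the most reads of the 5, with 54.5 ± 16.1 in C57BL/6J controls and 6.4 ± 3.8 in FVB/N controls, and 22 ± 5.2 and 3.5 ± 1.1 under DEHP. The log2 ratio of AA388235 was 2.24 in controls and 2.23 in DEHP libraries. Klf12, which encodes a Krüppel-like transcription factor, had 17.7 ± 2.2 and 4.8 ± 1.8 in controls and 16.8 ± 4.5 and 5.1 ± 1.4 under DEHP. Within each strain the deposited Klf12 means of both treatments lay within 1 SD of each other.

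Other promoters were separated in controls only. Mrgprb8, of the Mas-related receptors of sensory neurons and mast cells, carries 67 variants and had 22.3 ± 3.6 in C57BL/6J controls and 0.5 ± 0.6 in FVB/N controls. Under DEHP it had 7.7 ± 3.2 and 0.9 ± 1.0, and the ranges of both strains overlapped. Qpct, the enzyme that forms pyroglutamate at the ends of peptides, had 18.2 ± 4.3 and 1.6 ± 1.2 in controls and 10.4 ± 2.7 and 2.8 ± 1.3 under DEHP. Kcnn2, a calcium-activated potassium channel, had 12 ± 4.0 and 1.3 ± 0.4 in controls and 8.7 ± 3.0 and 1.3 ± 1.1 under DEHP. Kdf1, a factor of keratinocyte differentiation, had 16.1 ± 3.2 and 1.9 ± 1.8 in controls and 9.6 ± 4.8 and 3.3 ± 1.7 under DEHP. Speer3, of a glutamate-rich family expressed in testis, had 7.1 ± 1.5 and 0.7 ± 0.6 in controls and 8.3 ± 3.6 and 1.5 ± 1.5 under DEHP. Gm7457, a long non-coding RNA gene, had 35.8 ± 5.4 and 9.9 ± 1.6 in controls and 12.2 ± 6.2 and 5.5 ± 1.4 under DEHP. In these 6 promoters the mean of C57BL/6J was above that of FVB/N in both treatments.

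Tlr11, a toll-like receptor that recognises microbial proteins, did not keep its strain difference. It had 7.7 ± 2.3 in C57BL/6J and 1.1 ± 0.1 in FVB/N controls, and 4.6 ± 1.7 and 4.2 ± 1.8 under DEHP. The 2 promoters with FVB/N above C57BL/6J in controls each carry 20 variants. Clec2f, a C-type lectin of the natural killer gene complex, had 24.7 ± 4.1 in C57BL/6J and 46.0 ± 10.7 in FVB/N controls, and 12.9 ± 5.7 and 24 ± 7.8 under DEHP. Dlgap5, a protein of the mitotic spindle, had 3.5 ± 1.4 and 7.3 ± 1.5 in controls and 2.5 ± 1.5 and 3.8 ± 2.7 under DEHP. Neither was separated in controls with means as deposited.

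**Figure D4:**
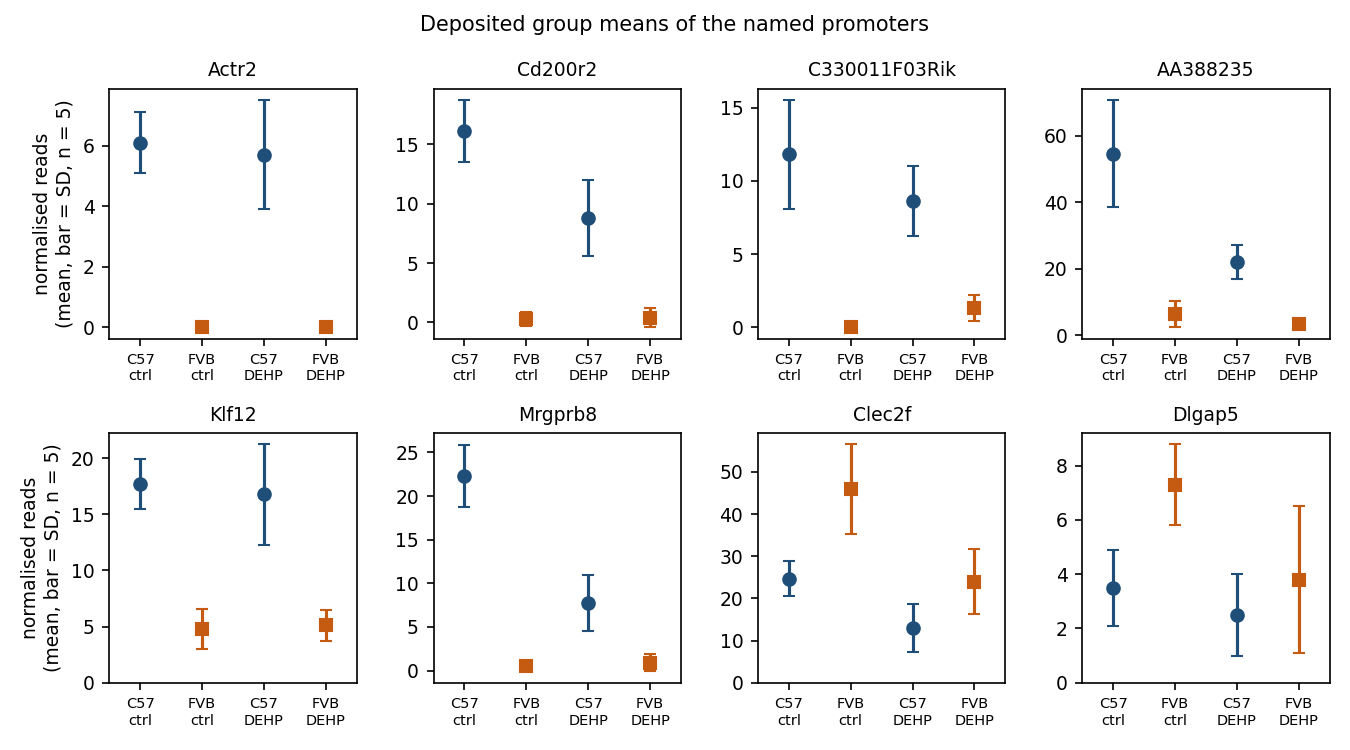
Normalised reads (y axis, the authors' mean with bars of 1 SD over 5 libraries) at 8 promoters by strain and treatment (x axis), with circles for C57BL/6J and squares for FVB/N. FVB/N lies below C57BL/6J in the first 6 panels, at 0 for Actr2, and above it for Clec2f and Dlgap5.

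The promoter with the most variants was that of Mrgprb4, a receptor of touch-sensing neurons, with 106. It had 2.6 ± 1.6 in C57BL/6J and 0.2 ± 0.5 in FVB/N controls, and 7.6 ± 2.0 under DEHP in C57BL/6J, where FVB/N was listed at 0. The next 4 in variant number were 1700123K08Rik with 77, Smco3 with 75, 4930444G20Rik with 72 and 2410017I17Rik with 69. Smco3 had 20.7 ± 10.5 and 2.1 ± 1.9 in controls and 18.2 ± 7.1 and 3.5 ± 1.7 under DEHP. 4930444G20Rik had 7.1 ± 2.2 and 1.8 ± 1.0 in controls and 5.3 ± 3.0 and 1.5 ± 1.1 under DEHP. In 1700123K08Rik and 2410017I17Rik the mean of C57BL/6J was also higher in both treatments, with log2 ratios of 1.38 and 0.97 in controls. In FVB/N controls a group mean of 0 was listed for 12 of the 987 promoters (1.22%, against 0.309% of promoters without a variant). In its DEHP libraries it was listed for 7 (0.709%, against 0.16% without a variant). In either C57BL/6J group it was listed for 0 of the 987, against 0.183% without a variant in controls and 0.0686% in DEHP libraries.

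Proteases and their inhibitors made up 23 of the 987 promoters, and 21 of them had more reads in C57BL/6J in controls and 17 in DEHP libraries. Such counts, here and in the groups below, stand beside the 76.0% and 79.0% of all 987 that were higher in C57BL/6J. The median log2 ratio of the 23 was 0.82 in controls and 0.48 in DEHP libraries. The 129 promoters of this group without a variant had -0.03 and -0.13. The difference was over 3 standard errors with C57BL/6J higher at 3 of the 23 in controls. That is 13%, against 12.3% of the 987 and 1.76% of all probes. In DEHP libraries it was so at 6 (26.1%, against 13.3% of the 987 and 2.07% of all probes). Of these 6, 3 are the 1 probe that Serpina1a, Serpina1c and Serpina1d share, so they are not separate promoters. On chromosome 12, between 103904751 and 104155872 of mm10, 9 variant-dense promoters of the alpha-1-antitrypsin and antichymotrypsin family (Serpina) lie with no gap over 100 kb, 3 of them on 1 shared probe. Their median was 0.90 in controls and 0.97 in DEHP libraries. With C57BL/6J higher, 0 of the 9 were over 3 standard errors in controls and 4 in DEHP libraries, 3 of them the shared probe. Serpina1e had 6.9 ± 4.5 and 0.5 ± 0.6 in controls and 9.8 ± 4.6 and 1.3 ± 1.3 under DEHP. Serpina1b, outside that stretch, had 11.2 ± 3.7 and 1.6 ± 1.4 in controls and 9.4 ± 3.1 and 2.8 ± 2.7 under DEHP. The probe shared by Serpina1a, Serpina1c and Serpina1d had 10.9 ± 4.0 and 2.4 ± 2.5 in controls and 9.5 ± 3.1 and 3.8 ± 1.1 under DEHP. These genes are near-identical copies, and pairs with several positions were discarded by the authors, so how reads are split among the copies is uncertain.

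Genes induced by interferon or of innate sensing held 11 promoters, 10 of them higher in C57BL/6J in controls, with medians of 0.33 in controls and 0.46 in DEHP libraries. Ifi204, an interferon-inducible DNA sensor, had 6.4 ± 2.3 and 0.2 ± 0.5 in controls and 4.4 ± 1.8 and 0.4 ± 0.5 under DEHP, and was over 3 standard errors in both. The probe listed for Ifi204 lies 138562 bases from the RefSeq start of that gene and overlaps an exon of Ifi211, so it may not be the Ifi204 promoter. Apobec3, a cytidine deaminase that restricts retroviruses, had 7.2 ± 2.5 and 1.8 ± 0.7 in controls but 4.0 ± 1.4 and 3.4 ± 1.6 under DEHP. Immune surface receptors and lectins held 19 promoters, 13 of them higher in C57BL/6J in controls, with medians of 0.53 and 0.14. Clec1b, a lectin of platelets, had 14.2 ± 2.3 and 2.9 ± 2.7 in controls and 12.2 ± 5.3 and 7.3 ± 4.0 under DEHP. Cytokines, chemokines and their receptors went the other way in controls, with 3 of 8 higher in C57BL/6J and medians of -0.24 in controls and 0.19 in DEHP libraries. Tnfrsf11b, the decoy receptor osteoprotegerin, had 0.7 ± 0.6 in C57BL/6J and 2.4 ± 1.2 in FVB/N controls, and 2.2 ± 1.4 and 4.1 ± 2.6 under DEHP.

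Drug-metabolizing enzymes held 8 promoters with medians of 0.95 in controls and 0.54 in DEHP libraries, 7 of them higher in C57BL/6J in each. Akr1c21, a hydroxysteroid dehydrogenase, had 5.5 ± 1.9 and 0.2 ± 0.5 in controls and 6.0 ± 1.9 and 1.3 ± 1.0 under DEHP. Aldh3a1, an aldehyde dehydrogenase, had 45.2 ± 11.4 and 11.6 ± 6.9 in controls and 22.9 ± 8.6 and 19.1 ± 3.7 under DEHP, so its strain difference was over 3 standard errors in controls only. Transporters and pumps held 31 promoters with medians of 0.21 and 0.38. Kcnj9, an inwardly rectifying potassium channel, had 38.5 ± 10.1 and 5.5 ± 4.9 in controls and 19.9 ± 7.9 and 12.6 ± 2.5 under DEHP. Secretoglobins, lipocalins and proteins of the reproductive tract held 6, with medians of 0.32 and -0.10. Among 7 promoters of small nucleolar RNAs, 6 were higher in C57BL/6J in controls and 1 in DEHP libraries, with medians of 0.59 and -0.53, and 0 were over 3 standard errors in either treatment. Of these, 4 (Snora16a, Snora44, Snora61 and Snord99) lie on overlapping probes on chromosome 4 that share reads, so they are largely 1 region. Predicted and RIKEN genes held 168 promoters with medians of 0.51 and 0.46.

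Genes of the male germ line were also present among the variant-dense promoters. The 14 annotated with spermatogenesis had medians of 0.27 in controls and 0.41 in DEHP libraries, with 10 and 11 of them higher in C57BL/6J, and 0 and 2 over 3 standard errors with C57BL/6J higher. The 2 in DEHP libraries are 14.3% of the 14, against 13.3% of the 987 and 2.07% of all probes. The 0 in controls stands against 12.3% of the 987 and 1.76% of all probes. Ddx4, the germ cell RNA helicase also called Vasa, had 8.4 ± 3.5 and 9.5 ± 4.4 in controls and 7.4 ± 3.1 and 7.2 ± 3.4 under DEHP. Atp1a4, the sodium pump subunit of sperm, had 25 ± 10.3 and 7.9 ± 4.1 in controls and 18.5 ± 7.0 and 12.5 ± 1.3 under DEHP. Serpina5, an inhibitor of proteases in semen, had 15.6 ± 3.0 and 4.7 ± 4.6 in controls and 11 ± 4.4 and 11.9 ± 3.9 under DEHP. Proteins of the sperm proteome accounted for 45 promoters with medians of 0.41 and 0.36, 30 and 34 of them higher in C57BL/6J. The 25 annotated with reproduction had medians of 0.21 and 0.20, and the 34 annotated with reproductive process had 0.27 and 0.21. Those of the sperm part were 8, with medians of 0.73 and 0.52, and 2 were imprinted, namely Gabra5 and Mcts2, with log2 ratios of 0.88 and 0.16 in controls. The Gabra5 probe lies 80957 bases from the RefSeq start of the gene.

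Other strain differences lay outside these groups. Trpm8, the cold-sensing ion channel, had 68.2 ± 23.3 in C57BL/6J and 18.8 ± 8.5 in FVB/N controls, and 51.0 ± 13.2 and 22.5 ± 3.7 under DEHP. Rgs9, a regulator of G protein signalling in photoreceptors and striatum, had 44.9 ± 8.1 and 10.6 ± 5.2 in controls and 20.8 ± 5.7 and 6.6 ± 1.6 under DEHP. Traf6, an adaptor of toll-like receptor signalling, had 12.5 ± 3.7 and 1.2 ± 0.9 in controls and 11.1 ± 3.1 and 4.6 ± 1.6 under DEHP. Scd3, a fatty acid desaturase, had 31.1 ± 6.9 and 3.5 ± 3.9 in controls and 23.6 ± 9.1 and 6.8 ± 2.7 under DEHP. Each of these 4 was over 3 standard errors in both treatments. The Rgs9 and Trpm8 probes lie 5995 and 3452 bases from the RefSeq starts of their genes. On chromosome 4, between 155785675 and 155962511 of mm10, 7 variant-dense promoters from Aurkaip1 to Fam132a were all higher in C57BL/6J in controls, with a median of 1.22, and 6 were so in DEHP libraries, with a median of 0.57. The difference was over 3 standard errors at 3 of the 7 in controls and at 0 in DEHP libraries. With C57BL/6J higher, 12.3% of the 987 and 1.76% of all probes passed in controls, and 13.3% and 2.07% in DEHP libraries. On chromosome 6, between 142322782 and 142814430, 8 variant-dense promoters from B230216G23Rik to Kcnj8 had lower medians of 0.30 and 0.26, and 1 of the 8 was over 3 standard errors in controls and 0 in DEHP libraries. Such neighbours share their tract of variants and are not independent of each other.

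The second question was whether the change under DEHP differed between strains where variants are dense. The direction of DEHP against control depended on the scaling. In C57BL/6J, DEHP libraries lay below controls at 15 of the 987 promoters (1.52%, against 1.88% of all probes) and above at 0 (0.222% of all probes), but the counts changed with the scale. With equal sums in place of equal medians they lay below at 0 (0.129% of all probes) and above at 7 (0.709%, against 1.02% of all probes), and as deposited below at 14 (1.42%, and 1.42% of all probes) and above at 0 (0.249% of all probes). In FVB/N they lay below at 24 (2.43%, against 3.25% of all probes) and above at 1 (0.101%, against 0.125% of all probes). With equal sums they lay below at 3 (0.304%, against 1.04% of all probes) and above at 4 (0.405%, against 0.627%), and as deposited below at 2 (0.203%, against 0.859%) and above at 5 (0.507%, against 0.774%). The promoter above controls in FVB/N was A530046M15Rik, with 1.8 ± 1.2 in controls and 11.5 ± 2.1 under DEHP.

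Among the promoters separated by treatment in C57BL/6J, Nme6, a nucleoside diphosphate kinase, had 27.0 ± 4.5 in controls and 10 ± 2.6 under DEHP, with 10.1 ± 2.4 and 6.6 ± 1.6 in FVB/N. Scn10a, a sodium channel of pain-sensing neurons, had 36.7 ± 8.1 and 12.5 ± 2.4 in C57BL/6J, with 17.1 ± 7.2 and 7.7 ± 2.1 in FVB/N. Gucy2c, the intestinal receptor guanylate cyclase, had 52.8 ± 6.2 and 24.3 ± 7.0 in C57BL/6J, with 27.2 ± 9.3 and 15.2 ± 3.1 in FVB/N. The means of these 3 were lower under DEHP in both strains as deposited, and with equal sums 0 of the 3 were separated. 4930579G18Rik had 52.1 ± 10.2 and 18.9 ± 4.3 in C57BL/6J, with 28.2 ± 7.8 and 12.4 ± 2.7 in FVB/N, and was separated in both strains at equal medians and in neither at equal sums. 2700038G22Rik had 25.7 ± 2.8 and 12 ± 3.3 in C57BL/6J, with 10.6 ± 4.7 and 5.7 ± 1.8 in FVB/N, and its log2 ratio in C57BL/6J went from -1.11 at equal medians to -0.51 at equal sums, where it was not separated.

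In FVB/N, Gprc5d, an orphan receptor, had 23.5 ± 1.3 in controls and 9.7 ± 2.7 under DEHP, with 26.6 ± 8.3 and 7.6 ± 0.8 in C57BL/6J. Hspb7, a small heat shock protein of heart muscle, had 16.9 ± 2.3 and 9.3 ± 2.4 in FVB/N, with 58.2 ± 24.4 and 15.2 ± 2.9 in C57BL/6J. Art4, an ADP-ribosyltransferase, had 33.6 ± 6.4 and 17.7 ± 2.6 in FVB/N, with 60.2 ± 20.5 and 25.1 ± 10.1 in C57BL/6J. Gpr62, an orphan receptor, had 18.2 ± 3.2 and 9.3 ± 2.7 in FVB/N, with 34.9 ± 10.7 and 13.7 ± 8.6 in C57BL/6J. In each of these 4 the mean was lower under DEHP in both strains as deposited, but Hspb7 and Gpr62 were not separated at equal sums, nor these 2 and Art4 as deposited.

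Separation by treatment in exactly 1 strain was seen at 34 of the 987 promoters (3.44%, against 4.3% of all probes), and in opposite directions in both strains at 0, as over all 22480 probes. The absolute difference of the log2 changes (C57BL/6J minus FVB/N) had a median of 0.42 at the 987 promoters, against 0.39 over all probes and 0.37 without a variant. It was 0.42 with 10 to 19 variants, 0.41 with 20 to 29 and 0.44 with 30 and over. The signed median was -0.04 in the 987 promoters and -0.04 without a variant. Over the class, Spearman's rho between variant number and the absolute difference was 0.0305, and with the signed difference it was -0.00493. With means as deposited the median absolute difference was 0.61 at the 987 promoters and 0.62 without a variant, so the order turned.

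The difference of changes was over 3 standard errors at 14 of the 987 promoters (1.42%, against 1.12% of all probes), 10 of them with the higher change in C57BL/6J. With equal sums 12 of 14 were in that direction (1.42% in all, against 1.09% of all probes). With means as deposited it was 4 of 49 (4.96% in all, against 3.41% of all probes), where the median difference over all probes was itself -0.50. Over all probes, 166 of the 252 so called were in that direction at equal medians, 175 of 244 with equal sums and 50 of 766 as deposited. The direction was therefore not particular to variant-dense promoters. Of the 14 at equal medians, 10 were among the 380 promoters with 30 variants or more (2.63%) and 4 among the 607 with 20 to 29 (0.659%). The share was 0.927% without a variant, 1.2% with 1 to 4, 1.08% with 5 to 9 and 0.936% with 10 to 19. It therefore did not rise steadily with variant number. Slc25a33, a mitochondrial nucleotide carrier, had 16.9 ± 4.1 and 10.3 ± 3.3 for C57BL/6J controls and DEHP, against 12.1 ± 1.9 and 4.2 ± 1.4 in FVB/N, a difference of 1.25 ± 0.31 (SE) on the log2 scale. Tdrd9, a helicase of the piRNA pathway of germ cells, had 4.8 ± 2.2 and 5.8 ± 1.7 in C57BL/6J, whereas FVB/N had 4.0 ± 2.3 and 1.7 ± 1.2, a difference of 1.61 ± 0.51. Ttc23l had 16.2 ± 6.0 and 16.4 ± 3.5 in C57BL/6J, whereas FVB/N had 19.8 ± 7.1 and 13.2 ± 3.0. Atp11b, a phospholipid flippase, had 0.2 ± 0.5 and 1.6 ± 0.5 in C57BL/6J, whereas FVB/N had 5.0 ± 2.4 and 3.2 ± 2.0, a difference of 2.12 ± 0.49, and C57BL/6J stood below FVB/N in both treatments.

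In the other direction, C330011F03Rik had a difference of -1.63 ± 0.345 and Tlr11 of -1.57 ± 0.34, both with the values of the strain comparison. Their FVB/N controls were listed at 0.0 ± 0.0 and 1.1 ± 0.1, so an SD at or near 0 entered the standard error of both. Fam171b had 11.1 ± 1.8 and 6.1 ± 2.0 in C57BL/6J, whereas FVB/N had 4.2 ± 0.9 and 7.1 ± 1.9, a difference of -0.88 ± 0.28. Ddost, a subunit of the oligosaccharyltransferase, had one of the largest differences at a mean level of at least 5 reads, -1.74 ± 1.0, but it was under 3 standard errors, with 19.6 ± 5.8 and 8.9 ± 2.4 in C57BL/6J, whereas FVB/N had 2.0 ± 3.9 and 5.6 ± 2.1. Bcl2l14 had a difference of -1.56 ± 0.70 and Mrgprb8 of -1.55 ± 0.53, and in the positive direction Pdgfrl had 1.45 ± 0.51 and Tuba3a 1.18 ± 0.41, all under 3 standard errors. Tdrd9, Ttc23l, Fam171b, Gm8994 and A530046M15Rik were chosen for description after their values were seen, as were the stretches on chromosomes 4, 6 and 12.

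**Figure D5:**
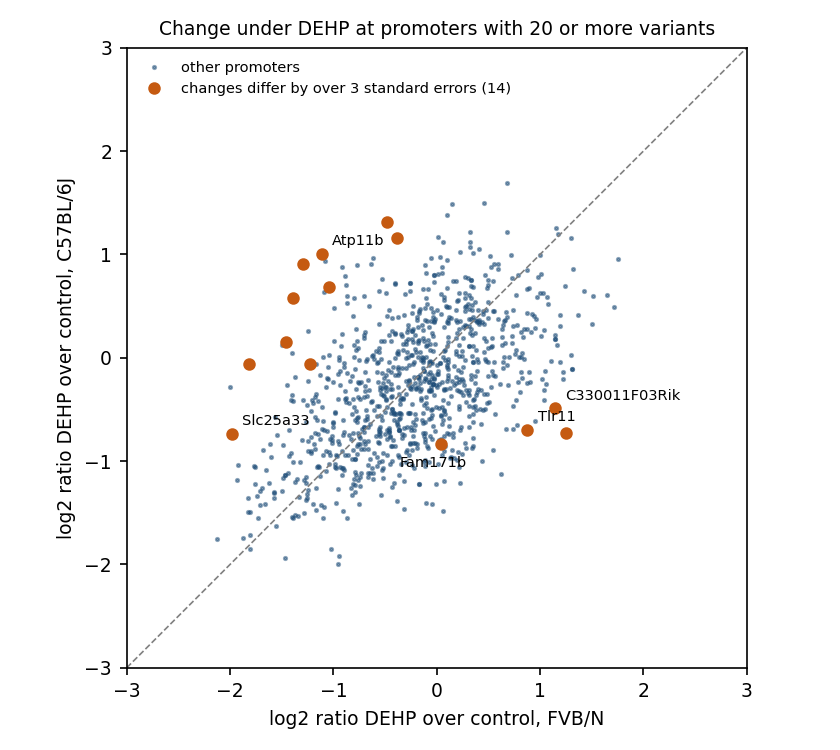
Log2 ratio of DEHP over control at the 987 variant-dense promoters in FVB/N (x axis) and C57BL/6J (y axis), at equal medians, with a dashed line where both strains change alike. Orange points are the 14 promoters whose changes differ by over 3 standard errors, 10 above the line and 4 below it; with equal sums the whole cloud moves up and to the right.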

How the data were processed

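MBD-seq of sperm DNA was analyzed in 20 libraries, 5 in each of 4 groups taken from the labels. Per the submitters' processing notes and the methods of the study, read-pairs were aligned onto mm10 with Bowtie 0.12.7, pairs with several positions, over-long inserts or no CpG were discarded, and pairs over each promoter were counted and normalized with edgeR. The authors deposited, for each group, a mean signal and its SD over libraries in normalized reads with 1 decimal. Numbers of CG sites, variants (counts) and gene flags are deposited annotations of the authors. The authors took homozygous FVB/N variants from the Mouse Genomes Project. The table also holds 9 columns of the authors' own comparisons (log2 fold changes, p-values and FDR), which were not used. The study's methods give a higher average number of read-pairs for DEHP libraries than for controls, and the depth of each single library is unknown here.

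Tests planned for counts were replaced by the fallback fixed for group means, which is no test. Groups were scaled to equal medians over all 22480 probes, and log2 ratios used a pseudocount of 1. Standard errors came from the deposited SDs with n = 5, on the log2 scale by the delta method. Sequences, repeats and gene starts came from the RefSeq assembly GRCm38.p6 and exons from RefSeq and GENCODE, and 93.9% of the 987 promoters had the deposited number of CG sites there. Nothing in the labels tells whether the 5 males of a group had different mothers.

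Named promoters were up to 10 in each direction separated in controls (by difference over summed SDs), those separated alike in both treatments, the 5 with most variants, up to 6 a strain separated by treatment, up to 3 in each direction by difference of changes (mean level of at least 5), up to 4 examples a gene group, and 39 that the study names, chosen by it on these libraries and so no independent support. Members and lists were chosen with earlier results of these data known. Alternatives were means as deposited or at equal sums, level minimums of 1 and 3, variant minimums of 10 and 30, pseudocounts of 0.1 and 5, 3 standard errors in place of separation, and CG classes. Python 3.11.15, numpy 2.4.6, pandas 2.3.3, pysam 0.24.0 and matplotlib 3.10.9 were used.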

Additional observations from a re-analysis of the deposited data

How the results depend on the processing

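The excess of C57BL/6J reads at variant-dense promoters over promoters without a variant was 0.53 (difference of median log2 ratios) in controls and 0.50 in DEHP libraries. It kept its sign under every scaling, level minimum, CG class and pseudocount tried, and with a pseudocount of 5 it was 0.30 and 0.28. The count of promoters separated between strains in controls was 26 of 987, and was 72 with means as deposited and 131 by 3 standard errors. With at least 10 variants it was 43 of a larger set of 2376, so this count is not to be read as a rise. In DEHP libraries the count was 22 of 987, and was 34 of the 2376 with at least 10 variants and 137 of the 987 by 3 standard errors. Separation by treatment in exactly 1 strain was seen at 34 of 987 (3.44%, against 4.3% of all probes). With means as deposited it was 19 (1.93%, against 2.95% of all probes), and with equal sums 14 (1.42%, against 2.66%). By 3 standard errors of the difference of changes it was 14 (1.42%, against 1.12% of all probes). The count was 95 of the 2376 with at least 10 variants and 18 of the 380 with at least 30. The share of the 380 was 4.74%, near the 4.3% of all probes and the 4.37% without a variant. The excess in absolute difference of changes, 0.05, was -0.01 (-0.00856) with means as deposited, which turns its sign, and 0.023 with a pseudocount of 5. Why the scalings differ was not tested. Keeping 1 probe per overlapping set, and probes with repeats under 20%, were added after seeing the data and changed no sign. Of 49 separations of named promoters, 40 held as deposited and 34 at equal sums, with 0 reversed.

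No paired analysis was possible because the labels give no replicate numbers shared by the groups and only group means and SDs were used. Leaving out single replicates and a count test with another normalization were not run for the same reason. The number of libraries and the unknown depth of each one limit precision, and promoters with means near 1 read cannot show a decrease.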
